A study of Homo sapiens with 14 samples.

Results

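Small RNA libraries of PANC-1 cells exposed to proanthocyanidins (PA) for 12 h were compared with libraries of cells kept in DMSO, the vehicle, for 3 h and for 24 h. PANC-1 is an established human line from a pancreatic ductal carcinoma, and PA are polymers of flavan-3-ols, here from grape. The comparison held 6 of the series' 14 libraries, 2 in each group, lettered A and B: PA at 20 µg/ml for 12 h, DMSO for 3 h and DMSO for 24 h. All groups shared the cell line and a medium with fetal bovine serum, and no untreated group without DMSO was used here. The remaining libraries were DMSO at 0 h and PA at 3 h and 24 h, also 2 each, which entered the fit and are cited where named, and DMSO at 12 h, which did not enter it. Time in culture differed between the sides: no control of 12 h stood beside PA 12 h, so PA and a change passing at 12 h in any culture cannot be told apart. The series' design text speaks of a biological replicate, but nothing in the labels says that A and B were separate cultures, so p-values measure the spread between these libraries, which may be technical.

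The DMSO 12 h libraries were set aside because earlier results of these data showed them to lie apart from the other controls. On the log2(CPM + 1) scale over 792 entries, with CPM standing for counts per 1000000 counts, the median absolute distance of the DMSO 12 h mean from the mean of DMSO 3 h and 24 h was 0.405. The same distance was 0.256 for PA 12 h and 0.322 for DMSO 0 h. More than 1 log2 unit separated 107 entries (13.5%) in DMSO 12 h, 34 (4.29%) in PA 12 h and 86 (10.9%) in DMSO 0 h. The controls of the comparison were chosen by these DMSO 12 h values, which are given as a description, with no test.

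MicroRNAs (miRNAs) are short RNAs cut from hairpin precursors. Bases 2 to 8 of the mature strand, the seed, pair with target mRNAs and lower their translation or stability. Each hairpin can give a 5p and a 3p strand with different seeds, and neighbouring hairpins are often transcribed together as a cluster. The miR-21, miR-221/222 and miR-17-92 families are known for raised levels in carcinomas of the pancreas.

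The mature sequences on which the results turn are printed from RefSeq (GRCh38.p14) 5′ to 3′ with the seed in capitals. RefSeq held 120 of the 131 named miRNAs looked up. The first is the miRNA with the widest difference among those that passed. The next 4 belong to a cluster and a tRNA-like entry near the top of the positive differences, and the others stand for the negative differences or allow strands of 1 hairpin family to be compared.
miR-7704: cGGGGUCGgcggcgacgug
miR-183-5p: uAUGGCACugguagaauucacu
miR-96-5p: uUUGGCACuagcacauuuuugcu
miR-182-5p: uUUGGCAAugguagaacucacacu
miR-4454: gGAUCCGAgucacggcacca
miR-222-3p: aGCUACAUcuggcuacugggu
miR-221-3p: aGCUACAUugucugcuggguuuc
miR-22-5p: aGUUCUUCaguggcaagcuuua
miR-27a-5p: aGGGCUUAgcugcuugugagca
miR-27b-5p: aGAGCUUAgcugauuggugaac
miR-27a-3p: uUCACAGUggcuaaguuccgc
miR-27b-3p: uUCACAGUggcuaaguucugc
The strands miR-222-3p and miR-221-3p share the seed GCUACAU, and miR-27a-3p and miR-27b-3p share UCACAGU. The 5p strands of miR-27a and miR-27b have different seeds. Of these 12 strands, miR-7704 had the highest share of G and C, 84.2% of 19 bases.

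Of 2848 rows in the count table, 2346 bore the name of a human miRNA and 502 a label made of a chromosome and a number. The labels of the second kind come without a sequence or position in the table and are reported as written. Totals over the 6 libraries ran from 1781112 to 2762869 counts, so that 1 count equalled 0.376 to 0.585 CPM. After a filter on low counts, 792 entries were tested, 673 with a miRNA name and 119 without. Libraries A and B of a group had a Spearman correlation of 0.96 to 0.968 across entries. The chi-square of their counts over its degrees of freedom was 61.1 for PA 12 h, 13.7 for DMSO 3 h and 23.7 for DMSO 24 h.

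Few entries passed the test of PA 12 h against the bracketing DMSO times. By edgeR's quasi-likelihood test at a Benjamini-Hochberg adjusted p under 0.05, 4 of 792 entries (0.505%) were higher and 0 were lower. They were 2 miRNAs, miR-7704 and miR-30d-3p, and 2 unnamed entries, chr8_19924 and chr19_35739. Both chr8_19924 and miR-7704 had already been named by an earlier comparison of these data with DMSO 12 h. At an unadjusted p under 0.05 there were 102 entries (12.9%), 52 higher and 50 lower, and over the 792 entries the log2 fold changes had a median of 0.00065. DESeq2 on the same counts called 9 higher and 3 lower. Both PA libraries lay above all 4 DMSO libraries for 76 entries (9.6%) and below them for 83 (10.5%), 159 in all (20.1%).

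**Figure D1:**
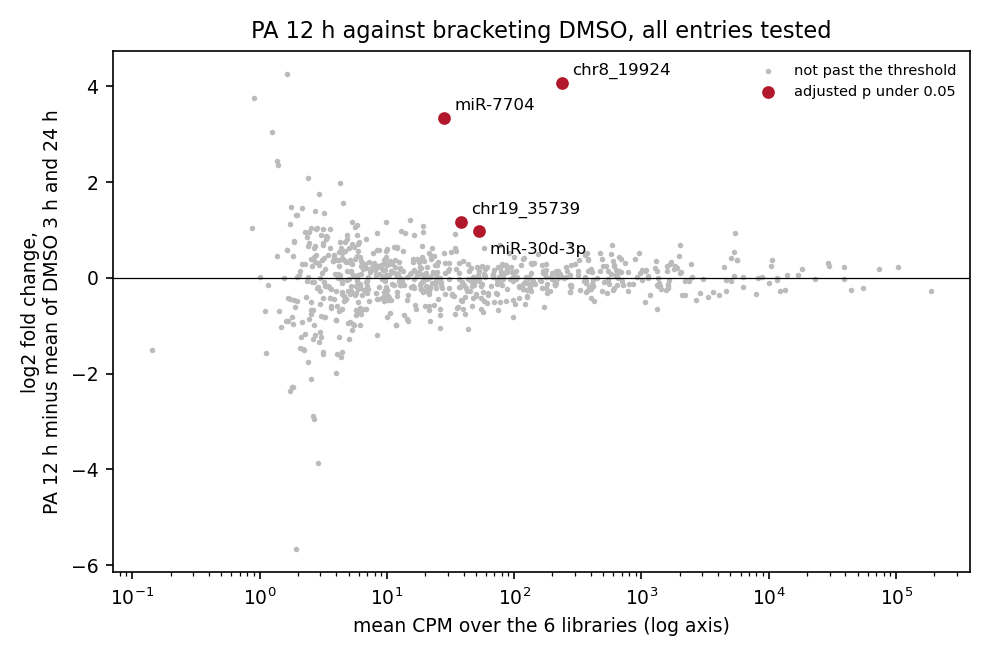
Log2 fold change of PA 12 h minus the mean of DMSO 3 h and 24 h (vertical axis) against mean CPM over the 6 libraries (horizontal log axis), 1 point for each of 792 entries. The 4 entries in red passed an adjusted p of 0.05, all above 0.

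The entry chr8_19924 had the widest difference among those that passed. Its level was 645 and 618 CPM in PA 12 h libraries A and B, 86.6 and 34.0 CPM in DMSO 3 h and 24.6 and 21.0 CPM in DMSO 24 h. Both PA libraries stood far above every DMSO library, and the groups did not overlap. The mean was 632 ± 19.0 CPM (SD, n = 2) in PA 12 h and 41.5 ± 30.5 CPM (SD, n = 4) over both DMSO times, a ratio of 15.2. With all 14 libraries scaled together, DMSO 12 h, outside the comparison, stood at 82.5 and 103 CPM. On the log2(CPM + 1) scale that was 1.35 above the bracket mean, beside 4.11 for PA 12 h, and was not tested. The log2 fold change was 4.07 ± 0.29 (SE) with an adjusted p of 3.2e-05 (edgeR), and the entry passed on each side of the bracket, at 3.35 against DMSO 3 h and 4.79 against DMSO 24 h. Leaving out any 1 of the 6 libraries kept the call. Because the table gives no sequence for it, what RNA it counts was not analysed here.

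The miRNA miR-7704 is encoded at chr2:176188843-176188901 on the plus strand (GRCh38.p14), in an exon of HOXD1, a homeobox gene, on the same strand and of the antisense RNA HAGLR on the opposite one (GENCODE v29). Its level was 47.2 and 94.3 CPM in PA 12 h, 11.3 and 4.68 CPM in DMSO 3 h and 4.83 and 6.85 CPM in DMSO 24 h. The groups did not overlap, although the PA libraries differed between themselves about as widely as the DMSO 3 h libraries did in ratio. The means were 70.7 ± 33.3 CPM (SD, n = 2) and 6.91 ± 3.08 CPM (SD, n = 4), a ratio of 10.2. With all 14 libraries scaled together, DMSO 12 h, outside the comparison, stood at 22.2 and 16.4 CPM. On the log2(CPM + 1) scale that was 1.40 above the bracket mean, beside 3.16 for PA 12 h, and was not tested. The log2 fold change was 3.33 ± 0.46 (SE) with an adjusted p of 0.00910 (edgeR), and the entry also passed against DMSO 3 h and against DMSO 24 h separately. Without PA 12 h library B the adjusted p was 0.088, and without DMSO 24 h library A it was 0.0677, so the call rested on those libraries. Reads of HOXD1, which lies on the same strand, cannot be told apart from the miRNA by strand. Nor can those of HAGLR here, since the use of strand in the counting is not given in the sources used.

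The other called miRNA, miR-30d-3p, is the less abundant strand of the miR-30d hairpin, a member of the miR-30 family known for roles in epithelial differentiation. It stood at 69.7 and 89.2 CPM in PA 12 h, 40.3 and 41.6 CPM in DMSO 3 h and 37.5 and 41.5 CPM in DMSO 24 h. All 4 DMSO libraries were nearly level and both PA libraries were above them. The log2 fold change was 0.99 ± 0.20 (SE), a ratio of means of 1.98, with an adjusted p of 0.0323 (edgeR). The other strand, miR-30d-5p, stood at 1515 and 1488 CPM in PA 12 h, 1953 and 2005 CPM in DMSO 3 h and 1330.5 and 1392 CPM in DMSO 24 h, with the PA libraries between the control times (−0.13 ± 0.12, adjusted p 0.694, edgeR). The difference between the strands was not tested.

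The unnamed entry chr19_35739 stood at 46.6 and 73.1 CPM in PA 12 h, 21.5 and 22.8 CPM in DMSO 3 h and 37.5 and 27.4 CPM in DMSO 24 h. The lower PA library exceeded the highest DMSO library by less than the PA libraries differed from each other. Its log2 fold change was 1.17 ± 0.24 (SE), a ratio of means of 2.20, with an adjusted p of 0.0323 (edgeR). The calls of miR-30d-3p and chr19_35739 each held in 1 of 6 fits that left out a library, the one without PA 12 h library A. Without the others the adjusted p ran from 0.112 to 0.509 for miR-30d-3p and from 0.0823 to 0.535 for chr19_35739.

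Each of the 4 entries was then followed through the DMSO 0 h and other PA libraries, at times that also differ from the controls. The entry chr8_19924 stood at 101 and 122 CPM in DMSO 0 h, 463 and 309.7 CPM in PA 3 h and 7214 and 10521 CPM in PA 24 h. Every PA library of the 3 times was thus above every DMSO library of 0, 3 and 24 h. For miR-7704 the values were 11.5 and 11.5 CPM in DMSO 0 h, 96.0 and 48.5 CPM in PA 3 h and 186 and 419.7 CPM in PA 24 h, and again each PA library exceeded each of these DMSO libraries. Levels at PA 3 h and PA 12 h overlapped for miR-7704, while those at PA 24 h were above both.

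The level of chr19_35739 was 30.2 and 45.2 CPM in DMSO 0 h, 32.7 and 41.3 CPM in PA 3 h and 68.3 and 88.4 CPM in PA 24 h. Its PA 3 h libraries overlapped the DMSO 0 h ones. For miR-30d-3p the values were 35.6 and 50.1 CPM in DMSO 0 h, 53.3 and 53.9 CPM in PA 3 h and 65.9 and 48.3 CPM in PA 24 h. This was the only one of the 4 whose PA 12 h libraries were both above both PA 24 h libraries; that order was not tested.

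Against DMSO 0 h, a control outside the bracket, PA 12 h had 53 entries past the threshold (6.69%), 26 higher (3.28%) and 27 lower (3.41%), and 24% of entries had an unadjusted p under 0.05. The log2 fold change in that comparison was 2.50 ± 0.35 for chr8_19924, 2.63 ± 0.59 for miR-7704 and 0.90 ± 0.25 for miR-30d-3p (SE), all past it. It was 0.69 ± 0.29 for chr19_35739, with an adjusted p of 0.159 (edgeR). The PA 12 h libraries are shared with the bracket comparison. PA 24 h minus DMSO 0 h shares no library with it. There 69 entries passed (8.71%), 41 higher (5.18%) and 28 lower (3.54%), with 23% at an unadjusted p under 0.05. Among them were chr8_19924 at 6.32 ± 0.41, miR-7704 at 4.70 ± 0.59 and chr19_35739 at 1.06 ± 0.29, while miR-30d-3p stood at 0.44 ± 0.25 with an adjusted p of 0.321 (edgeR). In PA 3 h minus DMSO 0 h no entry passed in edgeR (0%), 74 (9.34%) had an unadjusted p under 0.05 and DESeq2 called 3. The log2 fold changes there were 1.79 ± 0.35 for chr8_19924 and 2.64 ± 0.59 for miR-7704, with adjusted p of 0.147 and 0.221 (edgeR).

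**Figure D2:**
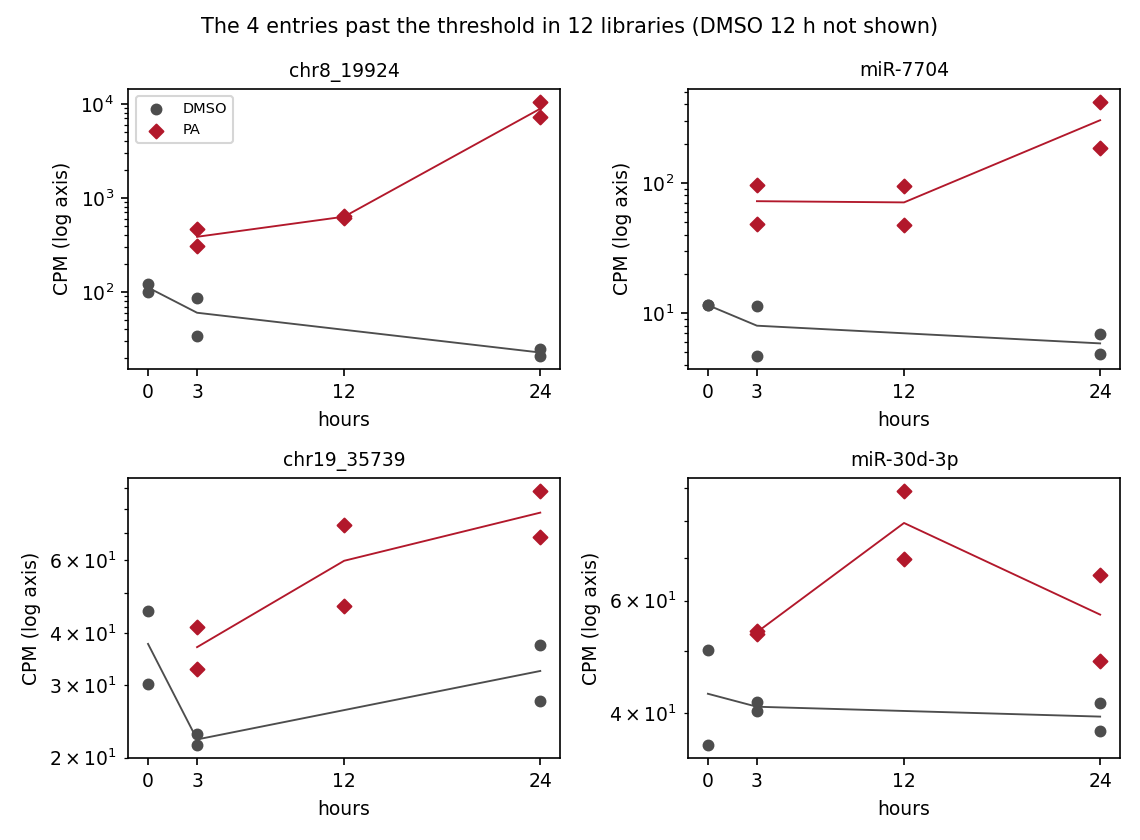
CPM (vertical log axis, a scale of its own in each panel) against hours of exposure for the 4 entries that passed, in DMSO (grey circles) and PA (red diamonds); points are libraries and lines join means of 2. The DMSO 12 h libraries are not shown, and the PA points of chr8_19924 and miR-7704 lie above all DMSO points.

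The nearest positive differences that did not pass were miR-183-5p and miR-4454. miR-183-5p belongs to a cluster with miR-96 and miR-182 that is known from sensory cells and from many carcinomas. Its level was 2159 and 3232 CPM in PA 12 h, 1366 and 1820.1 CPM in DMSO 3 h and 1885 and 1636 CPM in DMSO 24 h. Both PA libraries lay above all 4 DMSO libraries (0.69 ± 0.17 on the log2 scale, adjusted p 0.113, edgeR). For miR-96-5p the levels were 5912 and 7589 CPM in PA 12 h, 3996 and 5258 CPM in DMSO 3 h and 5116 and 4241 CPM in DMSO 24 h, again without overlap (0.54 ± 0.23, adjusted p 0.358). The third member, miR-182-5p, stood at 1713 and 1833 CPM, 1626 and 1734 CPM and 1357 and 1298 CPM in the same order, with the groups overlapping (0.25 ± 0.14). Thus 3 of 3 members had positive differences, median 0.54, beside 50% positive among all entries. The members of a cluster are not independent, and miR-183-5p, counted among them, was named for its small p. In edgeR 0 of 3 passed, beside 0.505% of all entries, and 2 of 3 had an unadjusted p under 0.05, beside 12.9%. DESeq2 called miR-183-5p (adjusted p 0.0130).

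miR-4454, an entry whose sequence is also part of a tRNA, stood at 5385 and 9991 CPM in PA 12 h, 2451 and 2925 CPM in DMSO 3 h and 6791 and 5286 CPM in DMSO 24 h. PA library A lay within the DMSO 24 h range and library B above it. The control times themselves differed, at 1.17 ± 0.27 (SE, adjusted p 0.0388, edgeR), and the difference from the bracket was 0.93 ± 0.23, adjusted p 0.113. The same entry passed against DMSO 3 h alone (1.52 ± 0.28) and not against DMSO 24 h (0.35 ± 0.27).

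No entry passed as lower in the main fit. Closest by p was the unnamed entry chr12_27013, at 66.6 and 61.4 CPM in PA 12 h, 128 and 124 CPM in DMSO 3 h and 93.0 and 110.5 CPM in DMSO 24 h (−0.82 ± 0.19 on the log2 scale, adjusted p 0.0937, edgeR). Its groups did not overlap, and DMSO 24 h lay between DMSO 3 h and PA 12 h. Another unnamed entry, chr19_36629, stood at 845 and 812 CPM, 1331 and 1184 CPM and 1219 and 986 CPM in the same order (−0.51 ± 0.14, adjusted p 0.113). Its PA libraries were close to each other and below all the controls. DESeq2 called both unnamed entries, and chr12_27013 also passed in edgeR with only the 6 libraries compared and without a filter.

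miR-222-3p, which targets the cell cycle inhibitor CDKN1B and is encoded beside miR-221 in an intron of MIR222HG (chrX:45747015-45747124, minus strand), stood at 1205 and 702 CPM in PA 12 h, 1845 and 1534 CPM in DMSO 3 h and 1318 and 1345 CPM in DMSO 24 h. PA library B was far below the controls and library A only slightly below (−0.66 ± 0.18, adjusted p 0.113, edgeR). Its seed partner miR-221-3p stood at 12129.7 and 9361 CPM, 13348 and 11814 CPM and 11132 and 15336 CPM in the same order, with overlap (−0.26 ± 0.14, adjusted p 0.467). In both strands PA library B was the lowest of the 6 libraries. The opposite strand miR-222-5p was scarce, at 9.74 and 8.21 CPM in PA 12 h, and its difference was 0.27.

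The 5p strands of the 2 miR-27 hairpins lay on opposite sides of the controls. The 5p strand of miR-27a, encoded in the miR-23a/27a/24-2 cluster at chr19:13836440-13836517, stood at 452 and 442 CPM in PA 12 h, 336 and 314 CPM in DMSO 3 h and 308 and 325 CPM in DMSO 24 h. Both PA libraries were above all the controls (0.48 ± 0.13, adjusted p 0.113, edgeR). DESeq2 called miR-27a-5p, as did edgeR at a minimum count of 50. The 5p strand of miR-27b, encoded at chr9:95085445-95085541 in an intron of C9orf3, stood at 39.0 and 39.9 CPM, 60.2 and 82.0 CPM and 58.0 and 60.4 CPM in the same order. Both of its PA libraries were below all the controls (−0.71 ± 0.20, adjusted p 0.124). The 3p strands share a seed. In PA 12 h miR-27a-3p stood at 78607 and 80151 CPM and miR-27b-3p at 41852 and 44491 CPM. Both were above all the controls, which ran from 66132 to 73347 CPM and from 36934 to 37200 CPM. Over all entries 9.6% lay above. The differences were 0.19 ± 0.11 and 0.22 ± 0.11 (adjusted p 0.508 and 0.410, edgeR). The 2 strands differ in few bases, so the split of reads between them is uncertain.

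miR-22-5p, the less abundant strand of the miR-22 hairpin, stood at 51.8 and 54.4 CPM in PA 12 h, 110.3 and 90.2 CPM in DMSO 3 h and 63.2 and 78.3 CPM in DMSO 24 h (−0.67 ± 0.18, adjusted p 0.113, edgeR). The PA libraries were the lowest of the 6, and miR-22-3p, the abundant strand, differed by −0.26 ± 0.16. The sixth entry with a small p, miR-5095, had 1 and 0 counts in PA 12 h, 14 and 9 in DMSO 3 h and 7 and 8 in DMSO 24 h, too few for a fold change to be given (adjusted p 0.113). Both PA libraries were below all the controls.

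**Figure D3:**
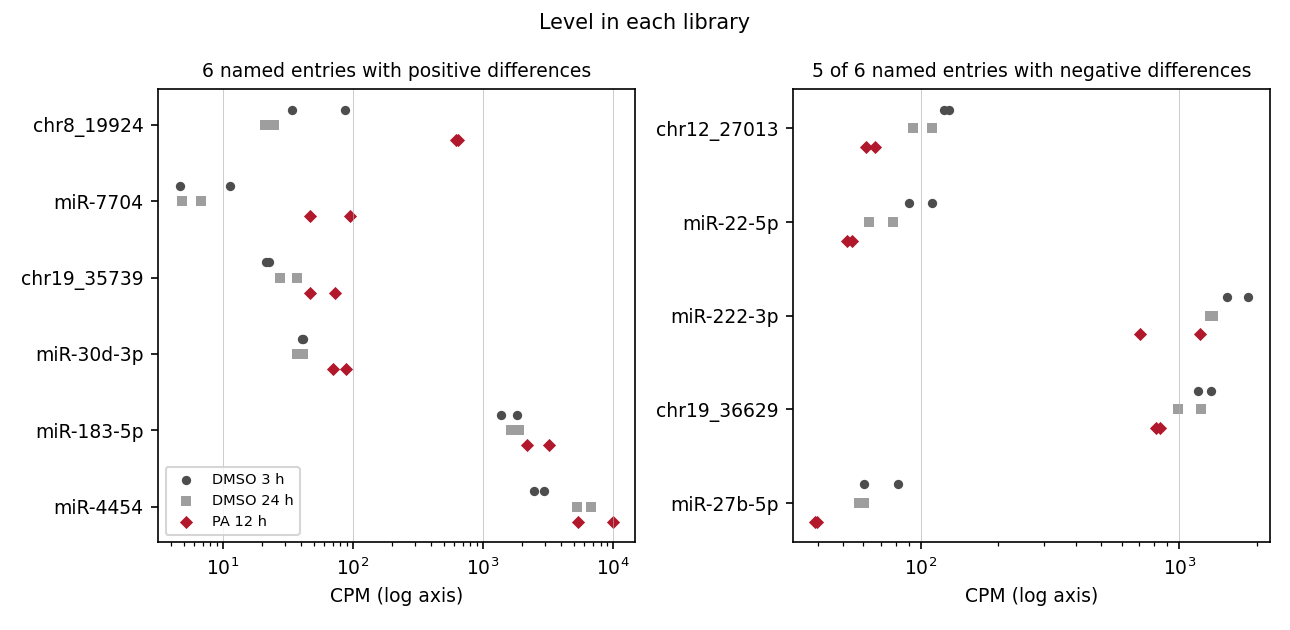
CPM in each of the 6 libraries (log axes) for the named entries with positive differences, left, and negative differences, right; each marker is 1 library. miR-5095 is left out because it has a count of 0 in 1 PA library; only the first 4 entries on the left passed an adjusted p of 0.05.

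None of the 8 most abundant entries passed in edgeR, and their differences ran from −0.28 to 0.25 on the log2 scale. miR-21-5p, which targets PDCD4 and is raised in most carcinomas, stood at 172745 and 151235 CPM in PA 12 h, 236123 and 229429 CPM in DMSO 3 h and 160997 and 172462 CPM in DMSO 24 h. The PA libraries were below DMSO 3 h and overlapped DMSO 24 h (−0.28 ± 0.12, adjusted p 0.355, edgeR). miR-100-5p, a member of the miR-99/100 family that targets MTOR, stood at 99756 and 126725 CPM, 101713 and 105069 CPM and 90798 and 92706 CPM in the same order (0.22 ± 0.12). The others were miR-27a-3p, miR-29a-3p (−0.22), miR-22-3p (−0.26), miR-146a-5p (−0.03), miR-27b-3p and miR-21-3p.

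Each side of the bracket was also tested alone. PA 12 h minus DMSO 3 h gave 6 entries higher and 4 lower (1.26%), and PA 12 h minus DMSO 24 h gave 3 higher and 0 lower (0.379%). Unadjusted, 124 entries (15.7%) and 69 entries (8.71%) had a p under 0.05 in edgeR, 29 of the latter lower, and DESeq2 called 3 entries in all against DMSO 24 h. Only chr8_19924 and miR-7704 passed on both sides. An unadjusted p under 0.05 on both sides in the same direction was found for 16 entries higher and 14 lower; the 2 sides share the PA 12 h libraries. The number against DMSO 3 h ran from 1 to 5 when a library was left out.

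Entries that passed against DMSO 3 h and not against DMSO 24 h included miR-33b-3p and miR-210-3p. miR-33b lies in an intron of SREBF1 (chr17:17813836-17813931, minus strand), a gene of lipid synthesis. miR-33b-3p stood at 76.9 and 61.0 CPM in PA 12 h, 27.1 and 24.0 CPM in DMSO 3 h and 65.6 and 91.2 CPM in DMSO 24 h. It was higher by 1.42 ± 0.27 (adjusted p 0.0290, edgeR) against DMSO 3 h, while DMSO 24 h minus DMSO 3 h was 1.61 ± 0.27. miR-210-3p, the main miRNA of the hypoxia response (chr11:568089-568198, intron of MIR210HG), stood at 2549 and 2234 CPM, 1435 and 1381 CPM and 2376 and 1883 CPM in the same order (0.76 ± 0.16 against DMSO 3 h, adjusted p 0.0315; 0.17 ± 0.16 against DMSO 24 h). In both miRNAs PA 12 h overlapped DMSO 24 h. The opposite strands miR-33b-5p and miR-210-5p differed from DMSO 3 h by −0.07 ± 0.38 and −0.03 ± 0.42.

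Lower than DMSO 3 h were chr12_27013 (−0.98 ± 0.22), miR-22-5p (−0.92 ± 0.20), miR-380-5p and miR-146a-3p. miR-380-5p is encoded in the imprinted DLK1-DIO3 region (chr14:101025017-101025077). It stood at 114 and 126 CPM in PA 12 h, 284 and 263 CPM in DMSO 3 h and 145 and 98.0 CPM in DMSO 24 h (−1.18 ± 0.26, adjusted p 0.0315, edgeR). miR-146a-3p, the minor strand of the NF-kB-induced miR-146a hairpin (chr5:160485352-160485450), stood at 90.2 and 111 CPM, 173 and 179 CPM and 101 and 99.7 CPM in the same order (−0.80 ± 0.18, adjusted p 0.0315). For these strands the values of DMSO 24 h lay on the same side of DMSO 3 h as PA 12 h or overlapped it. Of the opposite strands, miR-380-3p differed from DMSO 3 h by 0.29 ± 0.33, miR-146a-5p by 0.10 ± 0.14 and miR-22-3p by −0.33 ± 0.18.

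Against DMSO 24 h the third entry that passed was the unnamed chr16_32004, at 27.7 and 22.7 CPM in PA 12 h, 22.6 and 31.6 CPM in DMSO 3 h and 3.62 and 6.85 CPM in DMSO 24 h (2.26 ± 0.42, adjusted p 0.0209, edgeR). PA 12 h overlapped DMSO 3 h and exceeded DMSO 24 h. The control times differed for this entry by −2.35 ± 0.42, itself past the threshold.

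In the main fit more entries passed between the control times than between PA 12 h and the mean of those times. DMSO 24 h minus DMSO 3 h had 7 entries higher (0.884%) and 14 lower (1.77%), 2.65% in all, and 95 (12%) had an unadjusted p under 0.05 in edgeR. These counts were not compared by a test. Named by the largest changes were miR-33b-3p, miR-4454 and miR-411-3p (0.86 ± 0.19) as higher at 24 h. Named as lower were chr16_32004, miR-6750-5p, at 8.66 and 25.2 CPM at 3 h and 1.21 and 1.71 CPM at 24 h, and miR-372-5p. The last, from an embryonic stem cell cluster, stood at 4.52 and 5.27 CPM in DMSO 3 h and had 0 counts in both DMSO 24 h libraries, at least 7.86-fold lower against a floor of 3 counts over the group. In PA 12 h it stood at 2.56 and 1.96 CPM. Without 1 of the 4 DMSO libraries the number of entries between the control times fell to between 0 and 3.

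Groups of miRNAs were read from lists, each beside the 792 entries, of which 50% had positive differences and 0.505% passed. At so low a share, a list with no member past the threshold says little about its members. In 16 of the 17 lists with at least 2 tested members no member passed, and the exception was miR-7704 among 10 tested miRNAs embedded in HOX clusters. Of those 10, 8 were positive, with a median of 0.097, and miR-10a-5p, from the HOXB cluster, stood at 31271 and 36011 CPM in PA 12 h, 26799.8 and 29753 CPM in DMSO 3 h and 24408 and 26945 CPM in DMSO 24 h (0.32 ± 0.15). Both PA libraries of miR-10a-5p were above the controls; its adjusted p was 0.386 (edgeR). miR-196a-5p, also from HOX clusters, differed by 0.10 ± 0.14.

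Of 11 tested members of the miR-17-92 cluster and its paralogs, which promote cell cycle entry, 9 had negative differences, with a median of −0.27. Both PA libraries lay below all controls for 6 of them, beside 10.5% of all entries, and 4 had an unadjusted p under 0.05, beside 12.9% of all entries in either direction. None passed, as against 0.505% of all entries. miR-17-5p stood at 2009 and 1682 CPM in PA 12 h, 2201 and 2227 CPM in DMSO 3 h and 2536 and 2486 CPM in DMSO 24 h (−0.35 ± 0.16, adjusted p 0.358, edgeR). miR-92a-3p stood at 2631 and 2304 CPM, 3160.1 and 3219 CPM and 2957 and 3037 CPM in the same order (−0.33 ± 0.14). The positive members were miR-19a-3p (0.41 ± 0.41) and miR-19b-3p (0.23 ± 0.37), which share the seed GUGCAAA and overlapped the controls. Members of 1 cluster share a transcript and are not independent.

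The miR-33 list of SREBF and lipid miRNAs had 4 of 4 tested members positive, with a median of 0.47. At an unadjusted p under 0.05 in edgeR 2 of the 4 were higher, beside 52 of the 792 entries higher and 12.9% in either direction. They were miR-33a-5p and miR-33b-3p, and the latter differed from DMSO 24 h alone by −0.19 ± 0.25. The PA libraries overlapped the controls for 3 of the 4, and miR-33b-5p differed from the bracket by 0.046. The 4 are strands of the miR-33a and miR-33b hairpins and are not independent. miR-33a-5p, from an intron of SREBF2, stood at 208 and 171 CPM in PA 12 h, 132 and 135 CPM in DMSO 3 h and 167 and 105 CPM in DMSO 24 h (0.49 ± 0.19, adjusted p 0.319, edgeR). Both PA libraries exceeded the controls by a margin smaller than the spread of DMSO 24 h. Of 12 miRNAs induced by NF-kB or inflammation, 5 were positive and the median was −0.14. At an unadjusted p under 0.05 in edgeR 4 of the 12 were lower and 1 higher, beside 12.9% of all entries in either direction. Both PA libraries overlapped the controls for 8 of the 12, lay above them for 2 and below them for 2. miR-132-3p of that list stood at 36.9 and 43.4 CPM, 73.4 and 50.9 CPM and 70.9 and 56.5 CPM in the same order, below all controls (−0.65 ± 0.22, adjusted p 0.242). Its seed partner miR-212-3p, with the seed AACAGUC, lay on the other side, with overlap (0.33 ± 0.29, adjusted p 0.694, edgeR). Differences of other members were 0.07 ± 0.36 for miR-155-5p, 0.02 ± 0.16 for miR-146b-5p and −0.03 ± 0.12 for miR-146a-5p.

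Of 9 let-7 and miR-98 members, 5 were positive, with a median of 0.0091. The most negative of the 9 was let-7c-5p, at 9.74 and 8.61 CPM in PA 12 h, 22.6 and 17.6 CPM in DMSO 3 h and 14.1 and 13.3 CPM in DMSO 24 h, below all controls (−0.86 ± 0.44, adjusted p 0.410, edgeR). Another, let-7d-5p, stood at 363 and 289 CPM in PA 12 h, 456 and 455 CPM in DMSO 3 h and 387 and 456 CPM in DMSO 24 h, below all controls (−0.43 ± 0.15, adjusted p 0.242, edgeR). All 3 miR-29 members, which target collagens, were negative (median −0.21), as were 5 of 7 of the miR-15/16 family (median −0.12). The miR-23/27/24 clusters had 3 of 5 positive (median 0.19), the miR-99/100 and miR-125 list 3 of 5 (median 0.22), the p53-responsive list 4 of 6 (median 0.15, lowest miR-145-5p at −1.65), and the miR-130 family 1 of 4 (median −0.12). The 2 hypoxia-induced entries were 1 positive and 1 negative. Of the 17 lists, 0 members other than miR-7704 passed in edgeR, beside 0.505% of all entries. DESeq2 also called miR-183-5p, miR-4454 and miR-222-3p.

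**Figure D4:**
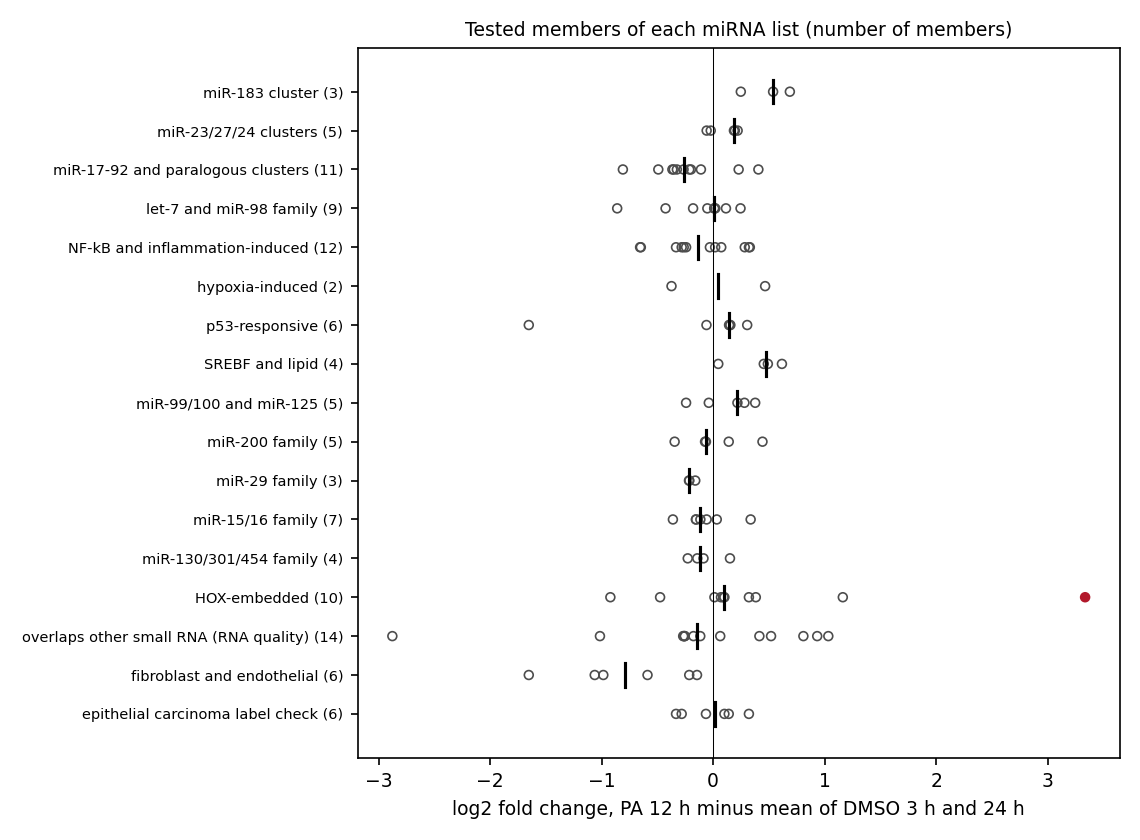
Log2 fold change of PA 12 h minus the mean of DMSO 3 h and 24 h (horizontal axis) for each tested member of the 17 lists with 2 or more, with the number tested in brackets; circles are members and black bars medians. The filled circle, miR-7704, is the only member that passed.

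Markers of other RNA sources were checked in the same 6 libraries. The sum of 4 haematopoietic markers was 3.91 to 4.10 CPM in PA 12 h and 1.61 to 4.68 CPM in DMSO, and that of 4 acinar and islet markers 7.18 to 8.61 CPM in PA 12 h and 2.14 to 6.04 CPM in DMSO. The red blood cell list rested on miR-486-5p, at 409 and 491 CPM in PA 12 h, 306 and 333 CPM in DMSO 3 h and 370.1 and 390.4 CPM in DMSO 24 h, above all controls (0.37 ± 0.15), while miR-144-5p was at 0 counts in all 6 and the sum over its 4 members was 413 to 494 CPM in PA 12 h and 310.1 to 392 CPM in DMSO. The 6 tested fibroblast and endothelial markers were all negative (median −0.79), and 5 of them overlapped the controls; 1 lay below them, beside 10.5% of all entries below and 20.1% on either side. Of that list, miR-143-3p stood at 93.0 and 5.99 CPM in DMSO 24 h libraries A and B, a wide gap, 83.9 and 26.3 CPM in DMSO 3 h and 30.2 and 20.7 CPM in PA 12 h. Of the muscle, liver and neuron markers only miR-9-3p was tested (0.13 ± 0.13), at 473 and 397 CPM in PA 12 h. The part of these sources in the results was not tested.

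Entries that overlap tRNA, rRNA or snoRNA, a sign of RNA quality, summed to 6993 and 11278 CPM in PA 12 h, 4167 and 4363 CPM in DMSO 3 h and 8652 and 7046 CPM in DMSO 24 h. Most of that sum was miR-4454, and 6 of 14 tested entries were positive, with a median of −0.15. Of the 14, 0 passed, beside 0.505% of all entries. The PA libraries spanned the DMSO 24 h values and lay above DMSO 3 h; the part of this in the results was not tested. Of miRNAs read for the epithelial carcinoma label, miR-21-5p was abundant and miR-31-5p stood at 7775 and 5691 CPM in PA 12 h. The epithelial markers were scarce or absent. Among them, miR-205-5p had 0 counts in PA 12 h libraries A and B and 0.856 CPM in DMSO 24 h library B. The epithelial miR-200 family was scarce (2 of 5 positive, median −0.065). Its member miR-200c-3p stood at 11.3 and 7.43 CPM in PA 12 h. In DMSO it stood at 6.77 and 13.5 CPM at 3 h and 10.5 and 8.56 CPM at 24 h. Whether the libraries met the carcinoma label was not tested.

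Finally, 32 entries that an earlier comparison with DMSO 12 h had named were placed beside the bracket. Of these, 28 were tested and 2 passed, chr8_19924 and miR-7704; the PA 12 h libraries overlapped the bracketing DMSO libraries for 17 of 28, lay above for 8 and below for 3. Over all entries 0.505% passed, 9.6% lay above, 10.5% below and 20.1% on either side. The list came from earlier results of these same data, so these counts are a description and no independent support. On the log2(CPM + 1) scale the median absolute distance from the bracket mean was 0.345 for PA 12 h and 1.19 for DMSO 12 h. DMSO 12 h was the farther of the pair for 24 of 28 entries, a description only, since these entries were chosen with DMSO 12 h in the comparison. For miR-146b-5p the PA 12 h levels were 182 and 250.4 CPM, on both sides of 196 and 219 CPM in DMSO 3 h and 234 and 209 CPM in DMSO 24 h.

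**Figure D5:**
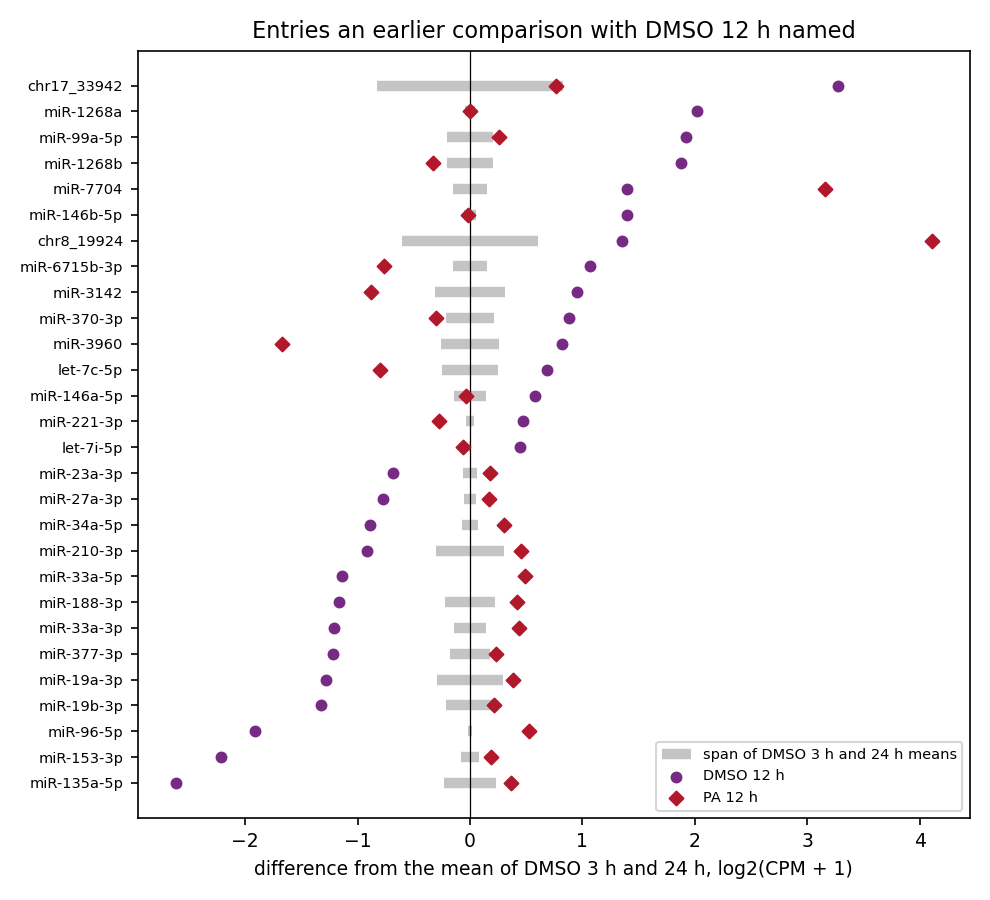
Difference from the mean of DMSO 3 h and 24 h in log2(CPM + 1) for the 28 tested entries, for PA 12 h (red diamonds) and DMSO 12 h (purple circles), with grey bars spanning the 2 control means. DMSO 12 h lies farther from 0 than PA 12 h in 24 of 28 entries; the exceptions include chr8_19924 and miR-7704.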

How the data were processed

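Whole-number read counts per mature miRNA entry and library were deposited by the authors, as the values themselves show. The submitters' processing notes list the tools bcl2fastq, Bowtie and edgeR and the build GRCh38. Versions, roles, strand use and the rule for reads with several matches are not given in the sources used here. A second deposited table, of scaled values, was not used.

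The 12 libraries other than DMSO 12 h were fitted by group with edgeR 4.0.16 in R 4.3.3 (TMM scaling, a filter at a minimum count of 10, robust quasi-likelihood F-test). The contrast was PA 12 h minus the mean of DMSO 3 h and DMSO 24 h, with Benjamini-Hochberg adjustment over 792 entries and a threshold of 0.05. SEs were taken from the F statistic, and CPM used TMM-scaled totals. The steps were tested on simulated data. Alternatives were DESeq2 1.42.0 and other scalings, filters, weights and sets of libraries. Totals of 1781112 to 2762869 counts limit precision by counting error, most for entries of few counts.

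The comparison, its members and the lists were chosen with earlier results of these data known. Entries were named as the 6 with the smallest p in each direction, the 8 most abundant, the largest changes of each side, list members and entries named earlier. Opposite strands of named entries and shared-seed partners were added after their values were seen. The letters A and B were not used to pair libraries in the main fit. Correlations of A minus B between groups were 0.0474, −0.0497 and −0.0178. They show no shift shared across entries, but they cannot tell whether the letters mark paired cultures, on which the labels are silent. Named miRNAs were placed on GRCh38.p14 with GENCODE v29.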

Additional observations from a re-analysis of the deposited data

Results flagged for a closer look

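A pair of unnamed entries had a signal in the DMSO 12 h libraries, which were left out of the fit. Both were among the 32 entries that an earlier comparison with DMSO 12 h had named. The entry chr14_29384 reached 155 CPM in the lower and 323 CPM in the higher of the DMSO 12 h libraries, while no other library exceeded 4.93 CPM. The entry chr7_18301 reached 60.3 CPM in the lower and 125 CPM in the higher of them, against at most 1.68 CPM elsewhere. Neither entry passed the filter on low counts in the 12 libraries fitted.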

How the results depend on the processing

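No result reversed. Entries higher in PA 12 h than in the bracketing DMSO libraries, 4 as reported, numbered 2 with all 14 libraries in the fit, 2 with the 4 DMSO libraries as 1 group, 9 with DESeq2, 7 without a filter, 2 among named miRNAs alone, and 1 to 8 when a library was left out; the 8 came without PA 12 h library A. Entries lower, 0 as reported, numbered 1 with only the 6 libraries compared, 3 with DESeq2, 2 without a filter and 0 to 1 when a library was left out. Against DMSO 3 h the 10 entries became 49 with only the 6 libraries, 2 with all 14, 30 with DESeq2, 19 without a filter and 1 to 5 when a library was left out. With the replicate block of letters A and B they became 5; the block left 4 entries higher and 0 lower in the bracket comparison. Against DMSO 24 h the 3 entries became 6 without a filter, 5 at a minimum count of 50, 0 among named miRNAs alone and 1 to 3 when a library was left out. Between the control times the 21 entries became 33 with only the 6 libraries, 10 with all 14 and 0 to 22 when a library was left out. Against DMSO 0 h, in alternatives added after the data were seen, the 53 entries of PA 12 h became 26 with all 14 libraries and 9 to 35 when a library was left out, and the 69 of PA 24 h became 29 and 49 to 68. The 0 entries of PA 3 h became 3 with DESeq2, 4 without a filter and 0 to 1 when a library was left out. The cause of these shifts was not tested.

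Among the 4 entries that passed, chr8_19924 kept its call in 11 of 11 other settings and in 6 of 6 fits that left out a library, and miR-7704 in 12 of 12 and 4 of 6. miR-30d-3p kept it in 10 of 12 settings, losing it with all 14 libraries (adjusted p 0.07 in edgeR) and with the 4 DMSO libraries as 1 group (0.0657). chr19_35739 kept it in 7 of 11, losing it also with controls weighted in log hours (0.0817) and with total counts (0.0668).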
